A study of Mus musculus with 2 samples.

Results

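Naive-like CD4 T cells were 238 of 1075 CD4 T cells and of 3913 immune cells recovered from the pancreatic islets of NOD mice, with 43 cells at 7 weeks of age and 195 at 12 weeks. They were chosen cell by cell from raw counts of unique molecular identifiers (UMIs, each standing for 1 captured transcript). CD4 T cells were barcodes with at least 1 UMI of Cd4, at least 1 of the CD3 chain genes Cd3d, Cd3e and Cd3g, and none of Cd8a, Cd8b1, Cd79a (B cells) or Siglech (plasmacytoid dendritic cells). Naive-like cells also held at least 3 UMIs of Lef1, Igfbp4 and Dapl1 together, here called the naive score. They held no UMI of Foxp3 (regulatory T cells), at most 1 of the cell cycle genes Mki67, Top2a, Birc5, Cdk1 and Rrm2, at most 2 of Tbc1d4, Izumo1r and Tnfsf8 together, and at most 4 of Lag3. The remaining 837 CD4 T cells are called other CD4 T cells.

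The cells came from female mice of the strain NOD/ShiLtJ, an inbred line that develops autoimmune diabetes spontaneously as lymphocytes enter the islets. CD45.1+ leukocytes were purified from islets by flow cytometry, and each age, 7 and 12 weeks, gave 1 library by the droplet method of 10x Genomics (Chromium, reading 3′ ends). The labels name no treatment or transgene, and the number of mice behind a library is not stated in them. With 1 library per age, and with members chosen from these same counts, no test was made. Levels are UMIs of a gene summed over a class, per 1000000 UMIs of that class (CPM), and each 95% interval covers counting error only and leaves out variation among animals and libraries.

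A naive T cell has left the thymus and has not yet met its antigen. It recirculates between blood and lymph nodes, entering nodes with the help of the chemokine receptor Ccr7 and leaving through the sphingosine phosphate receptor S1pr1, and it survives on interleukin 7 and contact with self peptides. The transcription factors Lef1, Tcf7, Klf2, Foxo1 and Satb1 are known to maintain this state, and after activation many of these genes are turned down while effector, migration and costimulation genes are turned on.

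The naive score separated the CD4 T cells into a large group near 0 and a broad upper range. Among the 43 members at 7 weeks the median score was 8 UMIs, the quartiles 4.5 and 13 and the highest 37. At 12 weeks the median was 9, the quartiles 6 and 13 and the highest 54. At the threshold, 5 members at 7 weeks and 9 at 12 weeks held exactly 3 UMIs. Just outside, 6 and 19 cells met every other condition with a score of 2. A further 13 and 34 CD4 T cells reached the score but failed another condition. The CD4 assignment often rested on a single UMI: 22 of 43 and 100 of 195 members held 1 Cd4 UMI, against 84 of 282 and 169 of 555 other CD4 T cells.

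**Figure D1:**
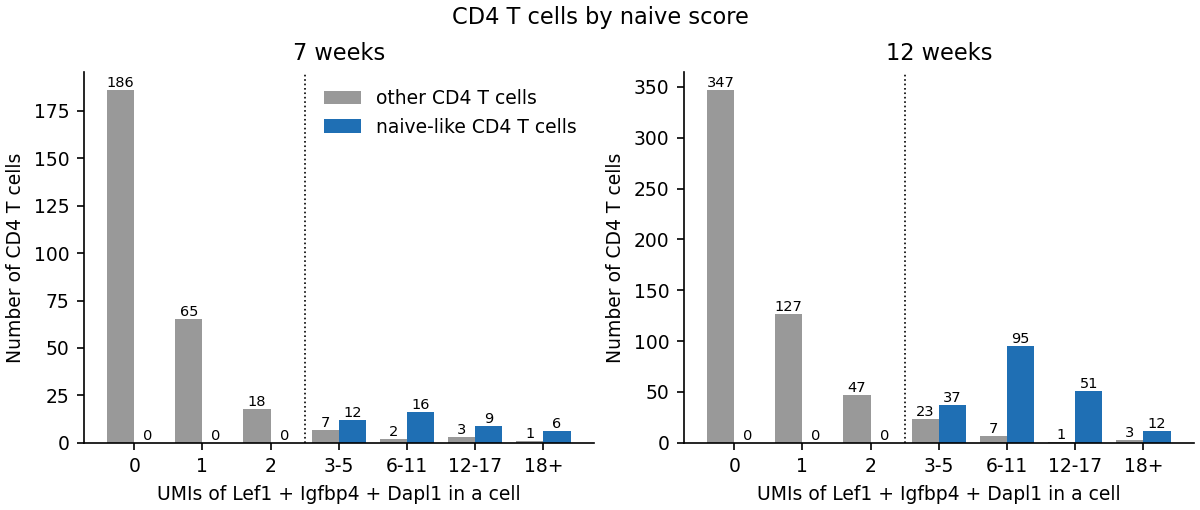
Number of CD4 T cells (vertical axis) by naive score, the UMIs of Lef1, Igfbp4 and Dapl1 in a cell (horizontal axis), at 7 weeks (left) and 12 weeks (right), with counts above the bars. The dotted line marks the threshold of 3 UMIs. Scores of 6 to 11 held 16 members at 7 weeks and 95 at 12 weeks, while 186 and 347 other CD4 T cells had a score of 0.

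All 5 marker genes given for these cells were higher in members than in other CD4 T cells in both libraries, and 3 of them, Lef1, Igfbp4 and Dapl1, were read by the selection. Igfbp4, which encodes a secreted binding protein of insulin-like growth factors, stood at 832 CPM in members and 15.9 in other CD4 T cells at 7 weeks, and at 823 and 14.1 at 12 weeks. Lef1, a Wnt pathway transcription factor of naive and memory precursor T cells, stood at 691 against 59.0 and 815 against 92.5 CPM. Dapl1 stood at 375 against 22.7 and 470 against 21.8 CPM. These 3 values describe the choice of cells and carry no further weight.

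The 3 genes did not appear in the same cells to the same extent. Lef1 had a UMI in 88.4% of members at 7 weeks and 95.9% at 12 weeks, Igfbp4 in 76.7% and 85.1%, and Dapl1 in 41.9% and 56.9%. All 3 were seen together in 13 of 43 and 86 of 195 members, and only 1 of the 3 in 10 and 12. With every cell thinned to 3000 UMIs (1 shallower member left out at 7 weeks), Igfbp4 was found in 64.3% and 72.8% of members, in 1.85% and 1.98% of other CD4 T cells, and in 0.943% and 0.62% of B cells, which should lack it. Median depth before thinning was 5217 and 4467 UMIs in members and 4957 and 4606.5 in B cells.

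Pdlim4 and Ccr7 were not read by the selection. Pdlim4, which encodes a PDZ and LIM domain protein of the actin cytoskeleton, was at 76.8 CPM in members and 6.35 in other CD4 T cells at 7 weeks, a 12.1-fold ratio (5.68 to 26.3). At 12 weeks it was at 167 and 8.62 CPM, 19.4-fold (13.0 to 29.7). In thinned cells it was found in 19.0% and 31.8% of members, 0.738% and 2.88% of other CD4 T cells, and 1.89% and 0% of B cells. Ccr7 was at 235 against 69.9 CPM at 7 weeks, 3.36-fold (2.42 to 4.60), and at 380 against 110 CPM at 12 weeks, 3.45-fold (2.98 to 4.002). The marker check therefore does not go against the label of naive-like CD4 T cells.

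The sequences before the start sites of 4 genes are shown, because Igfbp4 and Dapl1 define the cells, Pdlim4 is a given marker that the selection did not read, and Txk, a T cell kinase gene, was among the higher genes. Each is the 250 bases upstream of the RefSeq start on build GRCm38.p6, 5′ to 3′ along the gene's strand. Capitals mark letters searched on both strands: CTTTGAA or CTTTGAT or CTTTGTT for TCF/LEF factors, CACCC for KLF factors and GTAAACA for FOXO factors. Igfbp4 lies at chr11:99040994-99041243 (plus strand), Dapl1 at chr2:59484403-59484652 (plus), Pdlim4 at chr11:54069018-54069267 (minus) and Txk at chr5:72752778-72753027 (minus). Txk was chosen for display after its match was seen.
Igfbp4: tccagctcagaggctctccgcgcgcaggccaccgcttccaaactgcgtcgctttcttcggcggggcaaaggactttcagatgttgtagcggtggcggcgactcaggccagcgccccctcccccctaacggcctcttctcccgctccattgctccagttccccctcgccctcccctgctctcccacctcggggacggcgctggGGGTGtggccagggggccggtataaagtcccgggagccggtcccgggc
Dapl1: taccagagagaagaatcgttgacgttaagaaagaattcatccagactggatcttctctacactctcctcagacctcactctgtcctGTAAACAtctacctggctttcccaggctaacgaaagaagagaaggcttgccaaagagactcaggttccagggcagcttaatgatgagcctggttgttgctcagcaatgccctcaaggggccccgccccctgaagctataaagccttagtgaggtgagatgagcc
Pdlim4: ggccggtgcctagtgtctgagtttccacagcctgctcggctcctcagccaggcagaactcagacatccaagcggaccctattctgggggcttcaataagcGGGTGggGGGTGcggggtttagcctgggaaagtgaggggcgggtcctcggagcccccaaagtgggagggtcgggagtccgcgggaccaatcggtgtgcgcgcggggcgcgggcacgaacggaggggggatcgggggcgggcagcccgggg
Txk: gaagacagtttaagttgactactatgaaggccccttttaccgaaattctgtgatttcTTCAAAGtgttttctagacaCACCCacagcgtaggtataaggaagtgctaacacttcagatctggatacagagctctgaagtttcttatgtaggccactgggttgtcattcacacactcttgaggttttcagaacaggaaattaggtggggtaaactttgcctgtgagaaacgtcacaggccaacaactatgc

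The windows held FOXO letters in Dapl1, KLF letters in Igfbp4, Pdlim4 and Txk, and TCF/LEF letters in Txk. A further RefSeq start of Txk, with its window at chr5:72736603-72736852, held KLF but no TCF/LEF letters and is not shown. The shares of promoters holding such letters are the background. TCF/LEF letters were found in 12.0% of all 32851 promoters of the RefSeq table, in 8.21% of promoters of the genes eligible for the comparison below, and in 14.1% of those of genes at least 1.5-fold higher in members. KLF letters were found in 52.0%, 56.3% and 54.8%, and FOXO letters in 3.17%, 2.15% and 1.01%. A match is a description of letters, not a site or a cause, and of 22 genes looked up 16 had an entry in the table.

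Members made up 13.2% of CD4 T cells at 7 weeks (43 of 325, 9.74 to 17.4) and 26.0% at 12 weeks (195 of 750, 22.9 to 29.3), a difference of 12.8 percentage points (7.67 to 17.4). Of all kept barcodes they made up 3.88% (2.82 to 5.19) and 6.95% (6.04 to 7.96). Because the rule counts raw UMIs and depth differed, it was also applied after each barcode was thinned to 3000 UMIs (53 and 0 barcodes were too shallow). The shares were then 10.9% (29 of 265) and 23.6% (151 of 641), a difference of 12.6 points (7.27 to 17.3). With at least 2 Cd4 UMIs required of a CD4 T cell the shares were 9.59% and 19.8%. The larger share at 12 weeks was thus seen under each of these settings, as a difference between 2 libraries. The sort on CD45.1 can set such shares, and its part was not tested.

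The libraries held 1113 and 2812 barcodes, of which 1109 and 2804 were kept. They shared 2 barcode sequences, none of them in members. Members held 234433 UMIs at 7 weeks (2734 to 15551 per cell) and 916434 at 12 weeks (3044 to 12764 per cell), with a median of 1556 and 1405 genes per cell. Other CD4 T cells held 2203491 and 3481994 UMIs with medians of 1973.5 and 1686 genes. A gene with 0 UMIs in members could have reached 12.8 CPM at 7 weeks and 3.27 CPM at 12 weeks, taking 3 counts as the limit.

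Ribosomal protein transcripts took a larger part of the members' UMIs. The 84 ribosomal protein genes held 40.9% of member UMIs at 7 weeks and 42.8% at 12 weeks, against 30.2% and 30.4% in other CD4 T cells. Cell by cell, the member median was 40.8% and 43.4%, and 38 of 43 and 183 of 195 members lay above the upper quartile of other CD4 T cells (34.0% and 35.5%). Because CPM share 1 total, this lowers the CPM of every other gene in members. The median log2 ratio over all eligible genes was -0.34 in both libraries, and leaving ribosomal protein, mitochondrial and non-immune transcripts out of the total would raise every log2 ratio by 0.25 at 7 weeks and 0.30 at 12 weeks.

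Across 5905 eligible genes, 197 (3.34%) were at least 1.5-fold higher in members in both libraries and 1220 (20.7%) at least 1.5-fold lower. To be eligible, a gene needed 50 UMIs in all and detection in 10% or more of members, or of other CD4 T cells, at 1 of the ages. In members alone 2132 genes met both limits. The rest met them only with other CD4 T cells counted, which favours calls of lower. Most eligible genes of the activation, inhibitory receptor, type 1 effector, follicular helper and regulatory lists below were of this kind. The counts depend on the total used: without ribosomal protein and the other transcripts above they were 399 and 686, so that higher genes were 36.8% of calls in place of 13.9%, and with ratios scaled to their median they were 495 and 582, or 46.0%. Since the selection read these same cells, the counts describe the members and show nothing more. The plot of ratios in the 2 libraries places Igfbp4, Nacc2 and Pdlim4 at the upper end and Pdcd1, Ikzf2 and Maf at the lower end.

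**Figure D2:**
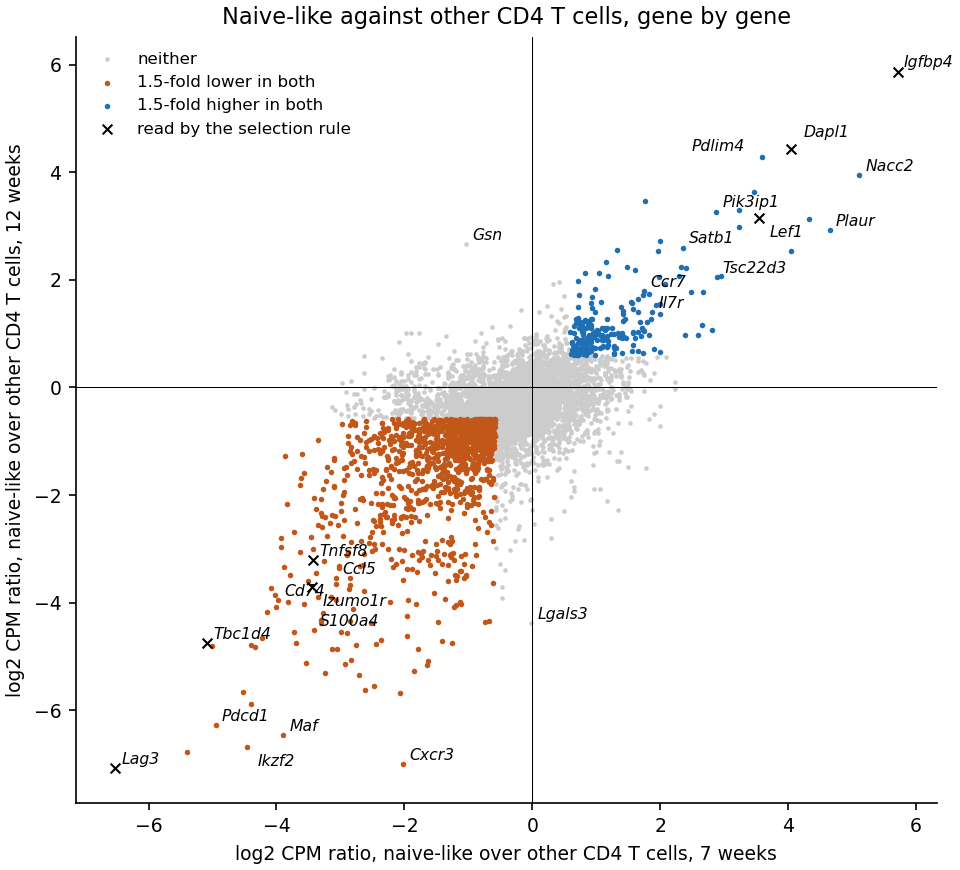
Each point is an eligible gene, placed by the log2 ratio of its CPM in naive-like over other CD4 T cells at 7 weeks (horizontal axis) and at 12 weeks (vertical axis). Blue points are the 197 genes at least 1.5-fold higher in both libraries, orange points the 1220 at least 1.5-fold lower in both, grey points the rest, and crosses 7 genes that the selection read. Gsn, Lgals3 and Cxcr3 lie off the diagonal, and single cells hold much of their UMIs.

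Among transcription factors of the naive state, 4 of 10 eligible genes (Satb1, Klf2, Foxp1 and Bach2) were at least 1.5-fold higher in members in both libraries and none lower. As background, 3.34% of all eligible genes were higher and 20.7% lower. The list's median log2 ratio was 0.43 at 7 weeks and 0.58 at 12 weeks, against -0.34 in both libraries over all genes. Satb1, a chromatin organiser of developing and resting T cells, was at 235 against 45.8 CPM at 7 weeks (5.12-fold, 3.62 to 7.18) and at 246 against 40.5 CPM at 12 weeks (6.06-fold, 4.89 to 7.54). Klf2, which drives transcription of S1pr1, was at 119 against 40.4 and 87.3 against 29.6 CPM (2.96-fold, 1.86 to 4.57, and 2.95-fold, 2.18 to 3.99). Bach2, a repressor of effector genes, was at 34.1 against 12.7 and 31.6 against 12.3 CPM (2.69-fold, 1.06 to 6.05, and 2.56-fold, 1.54 to 4.20). Foxp1 was 1.90-fold and 2.15-fold higher. Under the 2 other scalings 5 and 6 genes of the list were higher.

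Tcf7, the partner of Lef1 in naive and stem-like T cells, did not separate the classes. It stood at 188 CPM in members and 250 in other CD4 T cells at 7 weeks (ratio 0.751, 0.539 to 1.02) and at 228 and 189 CPM at 12 weeks (1.21, 1.03 to 1.41). In thinned cells it was found in 45.2% and 46.7% of members and in 42.8% and 38.4% of other CD4 T cells, against 0.943% and 1.03% of B cells. Foxo1, which sustains Il7r, had ratios of 1.26 (0.757 to 1.99) and 1.26 (0.948 to 1.66), and Ets1 had ratios of 0.886 and 0.824. Tcf7 thus differed between the classes by less than 1.5-fold at both ages.

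Ccr7 and S1pr1, receptors for entry into and exit from lymph nodes, were higher in members, but the list of homing and egress receptors was mixed. Of 9 eligible genes 4 were at least 1.5-fold higher (Ccr7, S1pr1 and Itga6 among them) and 2 at least 1.5-fold lower (Itga4 and Itgal), with medians of 0.20 and 0.72. Over all eligible genes 3.34% were higher and 20.7% lower, so the count of lower genes lay near the share over all genes. S1pr1 was at 188 against 79.4 and 199 against 92.2 CPM (2.36-fold, 1.66 to 3.31, and 2.15-fold, 1.79 to 2.59).

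Integrin chains differed in direction. Itga6, a laminin receptor chain, was 3.34-fold (1.51 to 6.82) and 3.29-fold (2.09 to 5.17) higher in members. Itga4, the chain that pairs with Itgb1 or Itgb7 for entry into inflamed tissue and gut, was at 51.2 against 144 and 75.3 against 184 CPM (ratios 0.355, 0.181 to 0.628, and 0.408, 0.314 to 0.524). Itgal, the alpha chain of LFA-1, had ratios of 0.479 and 0.356. Itgb7 had ratios of 1.15 (0.893 to 1.46) and 1.65 (1.46 to 1.85), and Itgb1 was at 141 against 398 and 42.6 against 375 CPM (0.354, 0.242 to 0.501, and 0.113, 0.0803 to 0.156).

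Among cytokine receptors of resting T cells none was lower in both libraries. Of 10 eligible genes 5 were at least 1.5-fold higher (Il7r, Il6ra, Il4ra, Ifngr2 and Tgfbr2) and none lower, with medians of 0.80 and 0.64. Among all eligible genes 3.34% were higher and 20.7% lower. Il7r, the interleukin 7 receptor alpha chain, was at 183 against 49.9 CPM at 7 weeks (3.67-fold, 2.52 to 5.27) and at 302 against 115 CPM at 12 weeks (2.64-fold, 2.25 to 3.08). Il6ra was at 192 against 70.8 and 117 against 60.9 CPM (2.71-fold, 1.90 to 3.80, and 1.92-fold, 1.51 to 2.43). Il4ra was 1.97-fold (0.843 to 4.09) and 3.56-fold (2.56 to 4.95) higher, from 9 member UMIs at 7 weeks. Il2rg, the chain shared by several of these receptors, was at 371 against 285 and 376 against 297 CPM.

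Genes that restrain activation and growth showed a narrower pattern. Of 12 eligible genes 4 were at least 1.5-fold higher (Tsc22d3, Pik3ip1, Txnip and Klf6) and none lower, with medians of 0.50 and 0.28. As background, 3.34% of all eligible genes were higher and 20.7% lower. Tsc22d3, a glucocorticoid-induced leucine zipper gene, was at 324 against 44.0 CPM at 7 weeks (7.36-fold, 5.38 to 10.0) and at 510 against 123 CPM at 12 weeks (4.13-fold, 3.61 to 4.71). Pik3ip1, an inhibitor of PI3 kinase, was at 119 against 16.3 and 166 against 17.2 CPM (7.31-fold, 4.30 to 12.3, and 9.63-fold, 7.09 to 13.2). Txnip, a brake on glucose uptake, was 3.46-fold (2.63 to 4.52) and 2.31-fold (2.001 to 2.67) higher. Under the 2 other scalings 5 and 6 were higher. Btg1, an antiproliferative gene also known in quiescent T cells, had ratios of only 1.36 and 1.20.

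Several further genes named by the ranking on both libraries are less often used as naive markers. Nacc2, a BTB domain transcriptional repressor gene, was at 46.9 CPM in members at 7 weeks from 11 UMIs, against 1.36 from 3 UMIs in other CD4 T cells (34.5-fold, 9.10 to 192). At 12 weeks it was at 57.8 against 3.73 CPM (15.5-fold, 8.33 to 31.0). Nacc2 had a UMI in 14.3% and 14.9% of thinned members and in 0 of 106 and 0 of 484 thinned B cells (exact upper limits 3.42% and 0.759%). Plaur, the urokinase receptor gene, was at 34.1 against 1.36 and 80.7 against 10.6 CPM (25.1-fold, 6.02 to 147, and 7.60-fold, 5.06 to 11.6). Plaur and Treml2 were also common in thinned B cells (19.8% and 27.3% for Plaur, 16.98% and 14.05% for Treml2).

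Txk, a Tec family kinase of resting T cells, was at 452 against 92.6 CPM at 7 weeks (4.88-fold, 3.83 to 6.21) and at 325 against 77.5 CPM at 12 weeks (4.19-fold, 3.54 to 4.96). It was found in 66.7% and 59.5% of thinned members and in 4.72% and 3.51% of B cells. Treml2 was at 64.0 against 3.18 and 48.0 against 5.46 CPM (20.1-fold, 7.73 to 58.4, and 8.80-fold, 5.03 to 16.0). Pdlim1, a relative of Pdlim4, was 5.56-fold (3.39 to 8.98) and 3.43-fold (2.48 to 4.75) higher. Pde3b, a phosphodiesterase that breaks down cyclic AMP, was 5.31-fold and 4.69-fold higher, Ggt5 9.40-fold and 9.82-fold, and Als2cl 16.4-fold and 5.81-fold, the last from 7 and 26 member UMIs.

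Among proximal antigen receptor signalling genes more were lower than higher in members, and the number depended on the total used. Of 13 eligible genes 7 were at least 1.5-fold lower (Zap70, Lcp2, Fyn, Cd5, Cd6, Cd28 and Ptpn22) and 1 higher, with medians of -0.99 and -0.81. Over all eligible genes 20.7% were lower. Without ribosomal protein and the other transcripts in the total, 5 were lower and 1 higher, and with median scaling 4 and 1. Under these 2 totals 686 and 582 of all 5905 genes were lower. Zap70, the kinase that binds the phosphorylated receptor, was at 81.0 against 229 CPM at 7 weeks (ratio 0.354, 0.211 to 0.558) and at 111 against 242 CPM at 12 weeks (0.460, 0.371 to 0.565). Cd5, which tracks the strength of self recognition, was at 64.0 against 260 and 132 against 251 CPM (0.246, 0.137 to 0.409, and 0.527, 0.432 to 0.638). Cd3d, read by the selection, had ratios of 0.892 and 0.836.

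Early response genes did not share 1 direction. Of 11 antigen receptor response genes 6 were at least 1.5-fold lower in members (Nr4a1, Nr4a2, Nr4a3, Egr2, Irf4 and Rel) and 2 higher (Cd69 and Myc), with medians of -0.81 and -0.63. The shares over all eligible genes were 20.7% lower and 3.34% higher. In members alone only 3 of the 11 met the limits of eligibility, so the filter favoured calls of lower. Under each of the 2 other scalings 4 were lower and 2 higher. Nr4a1, which follows receptor engagement, was at 64.0 against 151 and 44.7 against 73.5 CPM (0.425, 0.235 to 0.711, and 0.609, 0.426 to 0.849). Cd69 was at 516 against 249 and 465 against 279 CPM (2.08-fold, 1.69 to 2.53, and 1.67-fold, 1.49 to 1.87). Myc had 8 UMIs in 4 members at 7 weeks, and without the member holding 3 of them its ratio was 0.979 (0.305 to 2.44), below 1.5-fold.

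AP-1 and heat shock genes, which are also known to respond to tissue dissociation, were higher in members. Of 11 eligible genes 6 were at least 1.5-fold higher (Fos, Jun, Hspa1a, Hspa1b, Dnajb1 and Ier2) and none lower, with medians of 0.75 and 0.72. The shares over all eligible genes were 3.34% higher and 20.7% lower. Under each of the 2 other scalings 9 were higher. Hspa1a was at 1924 against 722 CPM at 7 weeks (2.66-fold, 2.39 to 2.96) and at 1401 against 524 CPM at 12 weeks (2.67-fold, 2.49 to 2.87). Jun was 1.85-fold and 2.35-fold higher and Fos 1.68-fold and 1.64-fold.

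Of 12 eligible activation and costimulation genes 10 were at least 1.5-fold lower in members and none higher, with medians of -1.94 and -3.18. The share of lower genes over all eligible genes was 20.7%. In members alone only 3 of the 12 met the limits of eligibility. The filter thus favoured this count, which carries no further weight. Tnfrsf4 (OX40), a costimulatory receptor of activated T cells, was at 21.3 against 429 CPM at 7 weeks (ratio 0.0497, 0.0161 to 0.116) and at 18.6 against 527 CPM at 12 weeks (0.0352, 0.0205 to 0.0565). Cd200 was at 8.53 against 276 and 9.82 against 274 CPM (0.0309 and 0.0358). Cd44 was at 42.7 against 139 and 15.3 against 125 CPM (0.306, 0.145 to 0.571, and 0.122, 0.0663 to 0.207). Cd40lg, the helper ligand of CD4 T cells, differed little, at 102 against 81.2 and 73.1 against 66.1 CPM (1.26, 0.787 to 1.94, and 1.11, 0.830 to 1.46).

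Most eligible inhibitory receptor and anergy-associated genes were also lower in members, against 20.7% of all eligible genes. In members alone only 1 gene of each of these lists met the limits of eligibility. The filter thus favoured such counts, which carry no further weight. Of 6 eligible inhibitory genes 5 were at least 1.5-fold lower, with medians of -3.20 and -3.80. Pdcd1 (PD-1) was at 8.53 CPM from 2 UMIs in members against 264 at 7 weeks (ratio 0.0323, 0.00390 to 0.117) and at 3.27 from 3 UMIs against 253 at 12 weeks (0.0130, 0.00267 to 0.0380). In thinned cells Pdcd1 was found in 2.38% and 0.513% of members, close to the 1.89% and 1.03% of B cells and far from the 42.1% and 36.0% of other CD4 T cells. Vsir, an inhibitory ligand of resting T cells, had ratios of 0.903 and 0.849. Among 7 anergy-associated genes 4 were lower and 1 higher, Dgka, a kinase that removes diacylglycerol (1.73-fold, 1.33 to 2.23, and 2.03-fold, 1.76 to 2.34). The related Tbc1d4, Izumo1r and Lag3 were read by the selection.

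Follicular helper and regulatory T cell genes were low in members. All 7 eligible follicular helper genes and all 10 eligible regulatory T cell genes were at least 1.5-fold lower in both libraries, with medians of -1.81 and -4.02 and of -2.66 and -3.33. The share of lower genes over all eligible genes was 20.7%. In members alone only 3 and 1 of the genes of these 2 lists met the limits of eligibility. The filter and the exclusion of Foxp3 thus favoured such counts, which carry no further weight. Maf was at 17.1 CPM from 4 UMIs in 1 cell against 254 at 7 weeks and at 3.27 against 290 at 12 weeks (ratios 0.0673, 0.0183 to 0.173, and 0.0113, 0.00233 to 0.0331). Ikzf2 (Helios) was at 17.1 against 376 and 3.27 against 337 CPM (0.0454, 0.0123 to 0.117, and 0.00973, 0.00200 to 0.0285). Other CD4 T cells include Foxp3-positive cells by construction. With Foxp3-positive and cycling cells taken out of the reference, 160 genes were higher and 995 lower in both libraries. The follicular helper and regulatory lists were not counted again against that reference.

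Type 1 effector genes were lower in 9 of 11 eligible cases and higher in none, with medians of -2.36 and -3.54. The share of lower genes over all eligible genes was 20.7%. In members alone only 4 of the 11 met the limits of eligibility. The filter thus favoured this count, which carries no further weight. Ccl5, a chemokine of effector and memory T cells, was at 76.8 against 647 CPM at 7 weeks (ratio 0.119, 0.0701 to 0.188) and at 112 against 1305 at 12 weeks (0.0861, 0.0701 to 0.105). It had a UMI in 28.6% and 27.2% of thinned members, against 26.4% and 23.3% of B cells, in which it stood at 104 and 79.4 CPM. No member held more than 4 Ccl5 UMIs, whereas single other CD4 T cells held up to 217 and 588. Angptl2, Eea1, Tnfrsf1b and Gpm6b, also named by the ranking, had at most 1, 3, 3 and 8 UMIs in the members of a library. Ccl4 was at 34.1 against 640 and 17.5 against 441 CPM (0.0533 and 0.0396), and 5 other CD4 T cells held 81.1% and 53.9% of its UMIs in their class.

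Galectin, S100 and annexin genes, many of them raised in migrating effector cells, were lower in 7 of 11 eligible cases, with medians of -1.27 and -1.63. As background, 20.7% of all eligible genes were lower. S100a4 was at 64.0 against 685 and 26.2 against 595 CPM (ratios 0.0934, 0.0522 to 0.155, and 0.0440, 0.0281 to 0.0657), and thinned shares of 11.9% and 7.18% in members were near the 11.3% and 5.17% of B cells. S100a6 was at 81.0 against 922 and 66.6 against 810 CPM (0.0879 and 0.0821). Lgals1 was at 243 against 1258 and 182 against 1088 CPM (0.193, 0.146 to 0.251, and 0.168, 0.143 to 0.196), and was found in 35.7% and 30.3% of thinned members, above the 18.9% and 14.05% of B cells. Cd44 or S100a4, genes that antigen-experienced T cells transcribe more, had a UMI in 11 and 31 members, and both in 2 and 2.

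Class II antigen presentation transcripts stood apart among the lower genes. Cd74 was at 98.1 against 1543 CPM at 7 weeks (ratio 0.0636, 0.0402 to 0.0955) and at 78.6 against 1210 at 12 weeks (0.0649, 0.0507 to 0.0820), and H2-Eb1 was at 64.0 against 689 and 64.4 against 516 CPM. In the reference, 5 other CD4 T cells held 61.1% and 60.8% of Cd74 in their class, and 1 cell at 12 weeks held 650 UMIs. Shares of thinned cells with a Cd74 UMI were 23.8% and 22.6% in members and 30.6% and 30.5% in other CD4 T cells. Summed markers of dendritic cells, a list that holds Cd74 and 3 class II genes, stood at 597 CPM in members and 4068 in other CD4 T cells at 7 weeks, and at 528 and 3318 at 12 weeks. Without other CD4 T cells holding more than 4 Cd74 UMIs, which left 271 and 537 of them, the log2 ratios were -0.10 and -0.38 for Cd74 and -0.21 and -0.21 for H2-Eb1. The counts were then 206 higher and 1184 lower genes. Leaving out cells by their Cd74 UMIs moves these ratios towards 1 by construction, so they carry no further weight.

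Summed markers of macrophages and of NK and innate lymphoid cells stood lower in members than in other CD4 T cells, while those of B cells were similar. Macrophage and monocyte markers summed to 183 and 344 CPM, with a UMI in 25 of 43 and 144 of 195 members, against 584 and 2334 in other CD4 T cells. B cell markers summed to 34.1 and 30.6 against 28.6 and 34.5, and NK cell and innate lymphoid markers to 128 and 84.0 against 571 and 447. Acinar transcripts of the exocrine pancreas summed to 21.3 CPM at 7 weeks and 300.1 at 12 weeks in members, and to 26.8 and 260 in other CD4 T cells. Islet endocrine transcripts summed to 21.3 and 212 in members and to 36.3 and 153 in other CD4 T cells. The pancreatic transcripts thus differed more between the libraries than between the classes. The markers Csf1r and Adgre1 (macrophages), Xcr1 and Ccr9 (dendritic cells) and Ncr1 and Klrb1c (NK cells) had 0 UMIs in members in both libraries. Others of the same lists had UMIs in members: Lyz2 5 and 33, Tyrobp 5 and 8, and Apoe 3 and 73. Of the Apoe UMIs at 12 weeks 64 lay in 1 member. Ctss alone gave 115 and 212 CPM of the macrophage and monocyte sums in members.

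Interferon-inducible gene counts depended on the total used. Of 12 eligible interferon gamma-inducible GTPase genes 4 were at least 1.5-fold higher in members (Gbp4, Igtp, Tgtp1 and Tgtp2) and 1 lower (Gbp3), with medians of 1.10 and 0.49. Among all eligible genes 3.34% were higher and 20.7% lower. Without ribosomal protein and the other transcripts in the total 7 were higher and 0 lower, and with ratios scaled to their median 8 and 0. Igtp was at 209 against 105 and 255 against 123 CPM (1.99-fold, 1.43 to 2.72, and 2.07-fold, 1.76 to 2.44). Of 12 type I interferon genes 1 was higher (Rtp4) and 2 lower (Isg20 and Ifi27l2a), with medians of 0.68 and 0.18, against 3.34% higher and 20.7% lower over all eligible genes. The counts became 4 and 1 without the transcripts named and 4 and 0 with median scaling. At 7 weeks 5 of 43 members held 48.7% of the UMIs of the type I list, and Isg15 lay for 90.0% in 5 members. For the GTPase list 5 members held 45.2% of the UMIs at 7 weeks and 11.7% at 12 weeks. Its median per cell was 4 UMIs in members and 2 in other CD4 T cells at 7 weeks, and 3 in both classes at 12 weeks.

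Glycolysis genes were lower in 6 of 14 eligible cases (Hk2, Pfkp, Tpi1, Gapdh, Pgam1 and Pkm) and higher in none, with medians of -0.64 and -0.80, against 20.7% lower over all eligible genes. Under each of the 2 other scalings 4 were lower. Gapdh was at 486 against 1309 CPM at 7 weeks (ratio 0.372, 0.305 to 0.448) and at 438 against 1344 at 12 weeks (0.326, 0.293 to 0.361). Pkm had ratios of 0.566 and 0.522, and Ldha 0.727 and 0.785. None of the 11 eligible translation genes passed 1.5-fold in both libraries, but 2 were higher without ribosomal protein and the other transcripts in the total and 4 with median scaling. Eef1a1 had ratios of 1.17 and 1.24. MHC class I genes had medians of -0.16 and -0.42, which became 0.10 and -0.13 without ribosomal protein and the other transcripts in the total, so no direction is given for them. B2m had ratios of 0.890 and 0.799.

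Levels were also read along the naive score in CD4 T cells that met all the other conditions. Pik3ip1 stood at 24 CPM at a score of 0, 57 at 1 and 66 at 2 at 12 weeks, and at 163, 184 and 144 CPM in members with scores of 3 to 5, 6 to 11 and at least 12. Satb1 likewise stood lowest at a score of 0 at 12 weeks. Ccl5 at 12 weeks stood at 3598, 2298 and 1141 CPM below the threshold and at 125, 116 and 101 CPM above it. The same step was seen for Ccl5 at 7 weeks, from 1776 CPM in 6 cells with a score of 2 to 33 CPM in 12 cells with scores of 3 to 5.

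Not every naive-associated gene followed the score. Il7r stood at 389 CPM at a score of 0 at 12 weeks and at 276, 339 and 266 CPM in the 3 member ranges, so it was no higher in members than in low-score cells that met the other conditions. S1pr1 stood at 190, 191 and 315 CPM below the threshold and at 182, 237 and 156 CPM above it. Tcf7 stood at 163, 121 and 223 CPM and at 207, 230 and 236 CPM. The higher Il7r and S1pr1 of members was thus a difference from the remaining CD4 T cells as a whole.

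**Figure D3:**
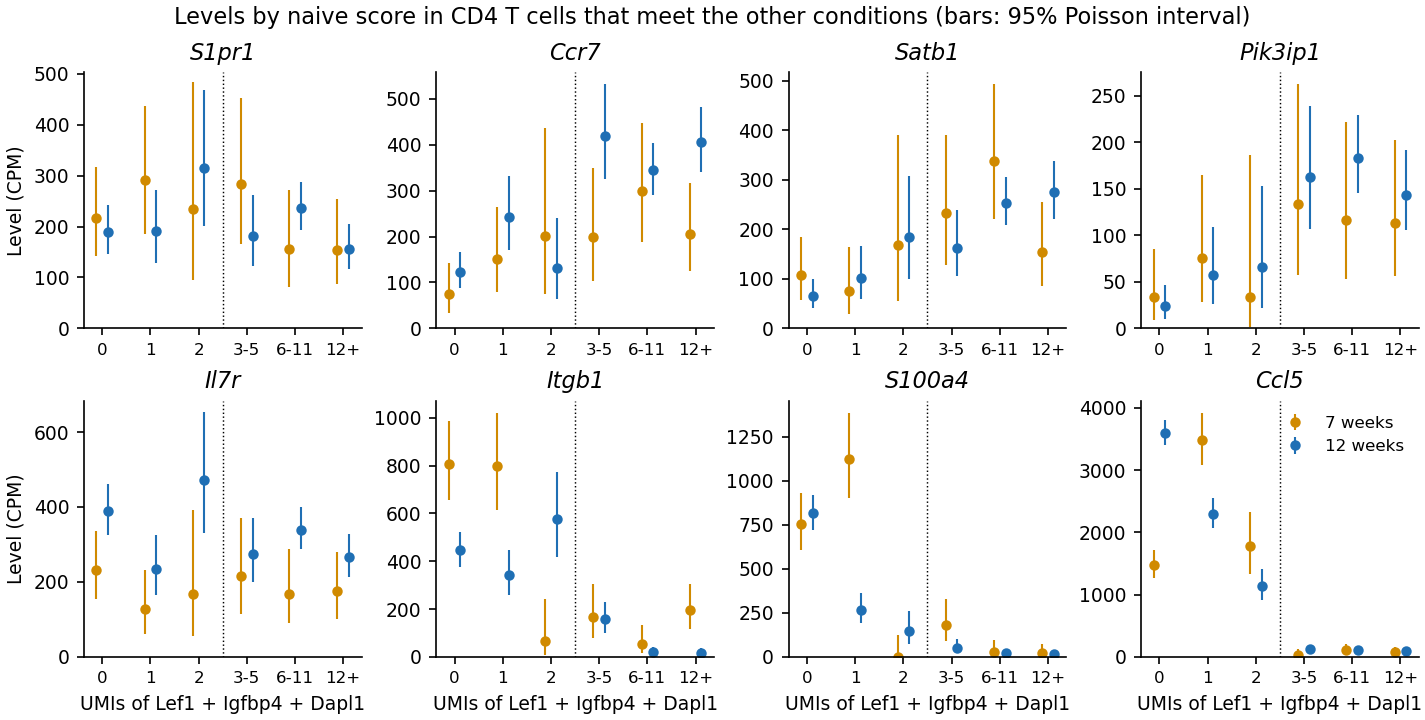
Level in CPM (vertical axis) of 8 genes by naive score (horizontal axis) in CD4 T cells that met every other condition of the selection, at 7 weeks (amber) and 12 weeks (blue), with 95% Poisson intervals for counting error. Cells right of the dotted line are members. Pik3ip1 stands higher right of the line at 12 weeks, Ccl5 stands lower, and Il7r does not follow the score.

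CD8 T cells with the same naive score offer a second reference, chosen with most of the same conditions. They held a UMI of Cd8a or Cd8b1, none of Cd4, Foxp3, Cd79a or Siglech, and a score of at least 3. As in members, at least 1 UMI of the CD3 chain genes and at most 1 of the cell cycle genes were required. The conditions on Tbc1d4, Izumo1r, Tnfsf8 and Lag3 were left out. This rule, chosen after the data were seen, gave 42 cells at 7 weeks and 169 at 12 weeks. The 2 classes were thus not defined independently of each other. Pik3ip1 was at 119 CPM in naive-like CD4 cells and 111 in these CD8 cells at 7 weeks, and at 166 and 172 at 12 weeks. Txk was at 452 against 350 and 325 against 338 CPM, and Treml2 and Plaur had intervals that included 1 in both libraries. Of these 4 genes in the 2 libraries, Txk at 7 weeks lay furthest apart, 1.29-fold higher in CD4 cells (0.964 to 1.73).

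Other genes differed between the naive-like CD4 cells and CD8 cells, among those that the score did not read. Pdlim4 was at 76.8 CPM against 3.98 from 1 UMI at 7 weeks (19.3-fold, 3.05 to 804) and at 167 against 9.74 CPM at 12 weeks (17.1-fold, 8.80 to 38.2). Nacc2 was at 46.9 against 3.98 and 57.8 against 7.58 CPM, the second a 7.63-fold ratio (3.46 to 19.9). Cd40lg was at 102 against 7.96 and 73.1 against 6.49 CPM. Ccl5 was at 76.8 against 1588 and 112 against 436 CPM, and Nkg7 at 89.6 against 859 and 25.1 against 933 CPM.

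Between the ages, 198 of 2132 eligible genes (9.29%) were at least 1.5-fold higher in members at 12 weeks and 161 (7.55%) at least 1.5-fold lower. The median log2 ratio over these genes was 0.03. The 7 week sums rest on 43 cells and their intervals are wide. Satb1 had a 12 over 7 week ratio of 1.05 (0.776 to 1.43). Ccr7, at 235 and 380 CPM, had a ratio of 1.62 (1.22 to 2.19), and Il7r, at 183 and 302 CPM, 1.65 (1.19 to 2.33). Both were also higher at 12 weeks in other CD4 T cells (Ccr7 1.57, 1.302 to 1.91, and Il7r 2.30, 1.85 to 2.86).

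Pdlim4 was at 76.8 CPM in members at 7 weeks and 167 at 12 weeks, a ratio of 2.17 (1.33 to 3.77), against 1.36 (0.697 to 2.77) in other CD4 T cells. With at least 2 Cd4 UMIs required of a cell, its log2 ratio was 0.35 in place of 1.12, which is below 1.5-fold. Gpr171, an inhibitory G protein-coupled receptor gene, was at 21.3 and 86.2 CPM (4.04, 1.66 to 12.8), with a ratio of 0.908 in other CD4 T cells. Emb (embigin), a partner of monocarboxylate transporters, was at 196 and 348 CPM (1.77, 1.299 to 2.47). Hars, Nab2, Copb1 and Kcnq1ot1 had ratios of 4.26, 3.71, 2.81 and 2.59 from 3, 4, 7 and 9 UMIs at 7 weeks. Whether any of these ratios differs between members and other CD4 T cells was not tested.

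Of the 8 genes named as lower in members at 12 weeks, 5 had similar or nearly similar ratios in other CD4 T cells. Ier5, an immediate early gene, was at 209 CPM in members at 7 weeks and 30.6 at 12 weeks (ratio 0.146, 0.0885 to 0.237), with 0.193 in other CD4 T cells. Hspa1b was at 358 and 119 CPM (0.332, 0.247 to 0.447, against 0.385), Smad7, an inhibitor of TGF-beta signalling, at 175 and 56.7 CPM (0.324, 0.211 to 0.501, against 0.347), and Btg1 at 1792 and 813 CPM (0.454, 0.402 to 0.513, against 0.514). Pnrc1 had ratios of 0.367 and 0.534 in the 2 classes. All 5 genes also had lower thinned shares in B cells at 12 weeks, Ier5 with 51.9% of B cells at 7 weeks and 13.8% at 12 weeks. The library and the age cannot be told apart.

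Itgb1, Prkca and Arl5c were lower in members at 12 weeks with ratios nearer 1 in other CD4 T cells. Itgb1, the beta chain of integrins of effector and memory cells, was at 141 and 42.6 CPM in members (0.302, 0.185 to 0.496) and had a ratio of 0.943 in other CD4 T cells. Of its 33 member UMIs at 7 weeks 75.8% lay in 5 cells, and without the 1 member with most Itgb1 UMIs at each age the ratio was 0.282 (0.156 to 0.515). With members taken from a naive score of 2, its log2 ratio was -0.66 in place of -1.73. Prkca had a ratio of 0.358, and 0.481 (0.285 to 0.831) without the member holding most of its UMIs at each age. Arl5c had ratios of 0.338 and 0.809 in the 2 classes.

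**Figure D4:**
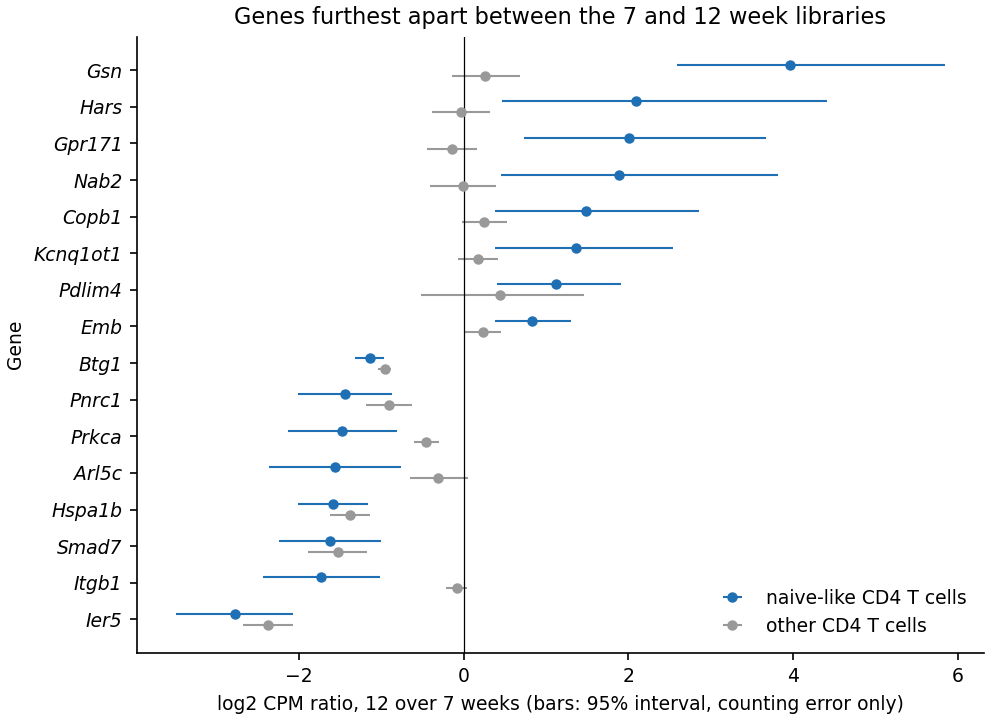
The 8 genes furthest higher and the 8 furthest lower in members at 12 than at 7 weeks, with the log2 ratio of CPM (horizontal axis) in naive-like (blue) and other CD4 T cells (grey) and 95% intervals for counting error. Ier5, Hspa1b, Smad7 and Btg1 are lower in both classes. The ratio of Gsn in members rests on 1 cell at 12 weeks.

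Single members carried several of the values. At 12 weeks 1 member of 12764 UMIs held 223 of the 244 Gsn (gelsolin) UMIs and 44 of the 61 S100a6 UMIs, with the highest naive score, 54. With it Gsn was at 266 CPM in members at 12 weeks and 6.35-fold above other CD4 T cells, and without it at 23.2 CPM and a ratio of 0.554 (0.333 to 0.879). At 7 weeks 1 member held 24 of 27 Lgals3 UMIs, and without it the Lgals3 ratio was 0.113 in place of 0.987. Another, of 15551 UMIs and a naive score of 25, held 6 of 13 Cxcr3 UMIs and 10 of 33 Itgb1 UMIs. Type 1 effector UMIs summed to a median of 3 per member at 7 weeks and 2 at 12 weeks, and 4 of 43 and 0 of 195 members held at least 10.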

How the data were processed

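CD45.1+ islet cells were compared at 7 and 12 weeks, 1 library each. The authors deposited UMI counts per gene and barcode, whole and not normalized. Reads were processed with Cell Ranger 1.3.1 on build mm10, per the submitters' processing notes. Its annotation is not given in the sources used here. Barcodes with at least 200 genes and at most 10% mitochondrial UMIs were kept. Doublets were not removed; leaving out the highest doublet scores, 10 and 63 barcodes, took out no member. Counts were summed per library and class and compared as CPM ratios with exact conditional binomial 95% intervals. Shares carry Clopper-Pearson and their differences Newcombe intervals. A class without a UMI was given 3 counts. Receptor segments, ribosomal protein, mitochondrial and unnamed genes and those read by the selection were not counted as higher or lower.

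The members and gene lists were chosen with earlier results of these data known. Named genes are the 14 furthest above and below 1 between classes and the 8 between ages, by the interval bound nearest to 1, plus given markers, genes read by the selection and, per list, 2 by that bound and 2 by UMIs. Cxcr3, Lgals3, S1pr1, Cd44, Foxo1 and other list genes outside that rule, single cells and the CD8 reference were chosen after their values were seen. Alternatives changed the score, Cd4 and mitochondrial limits, thinning, doublets, total, scaling, gene filter and reference cells. The ratios were tested on simulated data with Python 3.11.15, numpy 2.4.6, scipy 1.17.1, pandas 2.3.3, scikit-learn 1.9.0 and matplotlib 3.10.9. Some genes are not reported here.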

Additional observations from a re-analysis of the deposited data

Results flagged for a closer look

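Gsn, which encodes the actin-severing protein gelsolin, lay on opposite sides of other CD4 T cells in the 2 libraries, with a ratio of 0.488 at 7 weeks from 4 member UMIs and of 6.35 at 12 weeks. One member held 223 of the 244 Gsn UMIs at 12 weeks, and without it the ratio was 0.554. Nab2, a corepressor of EGR transcription factors, had a ratio of 0.427 at 7 weeks from 4 member UMIs and of 1.60 at 12 weeks from 58, and no member held more than 3 of them. Neither difference between the libraries was tested, and the interval at 7 weeks included 1 for both genes (0.130 to 1.302 for Gsn and 0.114 to 1.13 for Nab2).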

How the results depend on the processing

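Among the ratios of 83 genes and the shares recomputed, none past 1.5-fold and no share difference reversed direction under the alternatives run. For Gsn only the ratio between the ages was recomputed. Its ratio between the classes at 12 weeks, 6.35, was not among these values and was 0.554 without 1 member. With at least 2 Cd4 UMIs required, the share of members was 9.59% at 7 weeks and 19.8% at 12 weeks, and 96 genes were higher and 76 lower at 12 weeks. Without ribosomal protein, mitochondrial and non-immune genes in the total, 399 genes were higher and 686 lower in members, and with median ratio scaling 495 and 582. With no share of cells required and at least 10 UMIs, 746 genes were higher in members, and 1210 were higher and 1152 lower at 12 weeks. Of 1840 single-gene values under the alternatives, 1633 lay within the main interval and 207 did not. Foxo1, Ets1, Vsir, Cd40lg, B2m, Btg1, Ldha and Lgals3 changed sign under some of them, each in a library where it was within 1.5-fold of 1. With a score of 2 admitted, the log2 ratio of Ccl5 at 7 weeks was -1.23 in place of -3.08. No replicate could be left out, since each age has 1 library, and no paired analysis was possible because no group has 2 samples. The 43 members at 7 weeks limit every value at that age: 3 counts there are 12.8 CPM.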
